A study of Mus musculus with 22 samples.

Results

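The 8 genes described here, Pde1a, Pde1c, Pde4b, Pde4d, Pde7b, Pde8b, Pde10a and Pde11a, encode cyclic nucleotide phosphodiesterases, the enzymes that break down cyclic AMP and cyclic GMP. They were chosen by name, at their GENCODE vM21 spans on mm10 (GRCm38), out of 21718 protein-coding genes with a 5mC level. Every 100 kb bin overlapping a gene gave its 5mC level (51 of 26327 bins) and every 1 Mb bin overlapping it gave its 5hmC level (11 of 2641 bins), with 500 kb on either side as flanks. The series profiled 5mC by oxBS-seq and 5hmC by TAB-seq in cortex, olfactory bulb and cerebellum of untreated female C57BL/6 mice at 8 weeks of age, each replicate coming from an independent mouse. Cortex here is the whole cerebral cortex without the hippocampus, and olfactory bulb and cerebellum are whole tissues, so each level is an average over mixed cells, in which the share of a cell type and the level per cell cannot be told apart. There were 3 cortex, 2 olfactory bulb and 2 cerebellum libraries for 5mC and 3 libraries of each tissue for 5hmC.

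Cyclic AMP and cyclic GMP are made by adenylyl and guanylyl cyclases, act on protein kinases, exchange factors and ion channels, and are removed by phosphodiesterases, so the set of phosphodiesterases in a cell shapes how long and how far each signal reaches. Pde1a and Pde1c encode enzymes that calcium and calmodulin switch on, Pde4b and Pde4d encode rolipram-sensitive enzymes selective for cyclic AMP, Pde7b and Pde8b encode further enzymes selective for cyclic AMP, and Pde10a and Pde11a encode enzymes that act on both nucleotides. Pde10a is best known from the medium spiny neurons of the striatum, a tissue outside those profiled here. In DNA of the brain, 5mC is the methylated form of cytosine, mostly at CpG sites, and 5hmC is its oxidized form, which is abundant in neurons and along gene bodies.

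The genes are long. Pde4d on chromosome 13 (108449948 to 109953461, plus strand) spans 16 bins of 100 kb, Pde4b on chromosome 4 (102087543 to 102607259, plus strand) 7, and Pde1c on chromosome 6 (56069804 to 56569103, minus strand) 6. Pde7b on chromosome 10 (20398004 to 20725078, minus strand), Pde10a on chromosome 17 (8525372 to 8986648, plus strand) and Pde11a on chromosome 2 (75989141 to 76338774, minus strand) span 5 bins each. Pde1a on chromosome 2 (79834453 to 80129458, minus strand) spans 4 bins and Pde8b on chromosome 13 (95024454 to 95250336, minus strand) 3. Between 0.799% (Pde4d) and 4.02% (Pde1c) of a gene is exon, so the sequence inside a gene is nearly all intronic. The first and last bins reach past the gene, so part of each level comes from outside it. The bins also held other protein-coding genes, from 0 for Pde4b to 6 for Pde11a.

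Levels were deposited as fractions from 0 to 1 with no coverage, so the depth behind each value is unknown and errors are SDs between libraries. The mean 5mC level over 25664 bins was 0.684, 0.687 and 0.660 in the 3 cortex libraries, 0.709 and 0.705 in olfactory bulb, and 0.739 and 0.723 in cerebellum, the third cortex library being the lowest. Libraries of a tissue were more alike (Pearson's r across bins 0.947 to 0.982 for 5mC and 0.994 to 0.998 for 5hmC) than libraries of different tissues (at most 0.918 and 0.944). Of marker genes known from expression, 5 of 5 of cortex, 3 of 6 of cerebellum and 4 of 5 of olfactory bulb had their lowest mean 5mC in their own tissue. The exceptions were Gabra6, Barhl1 and En2 for cerebellum and Th for olfactory bulb. Dlx1 and Dlx2, counted for olfactory bulb, share a bin and so have the same values. Cortex also had the lowest mean levels over all bins. With the 500 kb flanks subtracted, the counts were 5 of 5 (cortex), 4 of 6 (cerebellum) and 4 of 5 (olfactory bulb). Of 3 oligodendrocyte and 3 astrocyte genes, none had its lowest mean 5mC in cerebellum.

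CpG sites, where most 5mC lies, differ in density along these genes, with a median of 7.83 per kb in the 51 bins against 7.53 in all bins used. The 3 windows of 250 bases printed here lie just before annotated transcript starts (RefSeq, GRCm38.p6) and show the range of CpG content at such starts, with each CpG in capitals. The Pde8b window, chr13:95223051-95223300 on the minus strand, holds 32 CpG sites, the Pde10a window, chr17:8801495-8801744 on the plus strand, holds 21, and the Pde4b window, chr4:102587308-102587557 on the plus strand, holds 0. All 3 starts lie inside the gene, downstream of its first annotated start, and the windows were chosen after their values were seen.
Pde8b: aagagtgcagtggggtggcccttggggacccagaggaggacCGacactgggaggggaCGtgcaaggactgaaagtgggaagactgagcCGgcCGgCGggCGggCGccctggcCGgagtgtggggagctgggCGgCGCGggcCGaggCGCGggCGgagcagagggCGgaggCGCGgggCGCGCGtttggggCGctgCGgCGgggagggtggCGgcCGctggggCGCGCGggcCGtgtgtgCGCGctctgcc
Pde10a: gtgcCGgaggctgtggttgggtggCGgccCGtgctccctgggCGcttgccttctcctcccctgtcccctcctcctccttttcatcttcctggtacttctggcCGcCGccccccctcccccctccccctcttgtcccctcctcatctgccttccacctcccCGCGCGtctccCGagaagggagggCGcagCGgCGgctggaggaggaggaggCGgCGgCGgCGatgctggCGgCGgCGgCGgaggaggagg
Pde4b: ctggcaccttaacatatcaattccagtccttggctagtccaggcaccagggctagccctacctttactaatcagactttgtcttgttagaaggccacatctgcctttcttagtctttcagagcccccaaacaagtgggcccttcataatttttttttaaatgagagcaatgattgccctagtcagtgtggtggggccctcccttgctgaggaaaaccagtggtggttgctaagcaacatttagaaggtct

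All 8 genes matched RefSeq, with 21 such windows, of which 5 held 10 or more CpG sites; over all 32851 windows the share was 37.8%. The level of the 100 kb bin around each window, of which the window is a small part, was 0.601 (cortex), 0.695 (olfactory bulb) and 0.719 (cerebellum) for the Pde8b start, 0.541, 0.583 and 0.541 for the Pde10a start, and 0.484, 0.568 and 0.594 for the Pde4b start. The bin with the CpG-free window was thus the lowest of the 3 in cortex. The level of a window itself cannot be read from a bin.

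Among the calmodulin-dependent enzymes, Pde1a differed between all 3 tissues and no difference of Pde1c passed the test. For Pde1a, 5mC was 0.655, 0.673 and 0.638 in the cortex libraries, 0.722 and 0.720 in olfactory bulb, and 0.792 and 0.784 in cerebellum. The 3 tissues did not overlap, with cortex lowest and cerebellum highest. On the scale of log2(level/(1 − level)), used for all tests of levels here, olfactory bulb exceeded cortex by 0.44 (SE 0.113, limma adjusted p = 0.00331), cerebellum exceeded cortex by 0.97 (adjusted p = 2.69e-10), and cerebellum exceeded olfactory bulb by 0.52 (adjusted p = 0.00102). For Pde1c, 5mC was 0.730, 0.727 and 0.704 in cortex, 0.736 and 0.743 in olfactory bulb, and 0.743 and 0.737 in cerebellum. The libraries of the tissues lay close together, with limma adjusted p-values of 0.318, 0.270 and 0.994 for the 3 pairs, and its cortex mean of 0.720 ± 0.0144 (SD, n = 3) was the highest of the 8 genes.

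Both PDE4 genes had more 5mC in cerebellum than in cortex, but olfactory bulb sat at opposite ends. For Pde4b, 5mC was 0.613, 0.614 and 0.579 in cortex, 0.672 and 0.676 in olfactory bulb, and 0.676 and 0.662 in cerebellum. Olfactory bulb and cerebellum overlapped (limma adjusted p = 0.880), and both exceeded cortex, by 0.45 (adjusted p = 0.00300) and 0.42 (adjusted p = 0.00152) on the log2 scale. For Pde4d, 5mC was 0.674, 0.667 and 0.646 in cortex, 0.675 and 0.670 in olfactory bulb, and 0.727 and 0.717 in cerebellum. Here olfactory bulb overlapped cortex (adjusted p = 0.656), and cerebellum exceeded cortex by 0.40 (adjusted p = 0.00193) and olfactory bulb by 0.34 (adjusted p = 0.0342).

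Pde7b and Pde8b, the other genes for enzymes selective for cyclic AMP, ran in the order cortex, olfactory bulb, cerebellum. For Pde8b, 5mC was 0.614, 0.622 and 0.598 in cortex, 0.723 and 0.711 in olfactory bulb, and 0.764 and 0.740 in cerebellum. Its excess in olfactory bulb over cortex, 0.69 on the log2 scale (SE 0.114, limma adjusted p = 1.11e-05), was the largest of the 8 genes for that pair, and cerebellum exceeded cortex by 0.95 (adjusted p = 4.70e-10). The 2 higher tissues did not overlap but did not pass the test against each other (0.26, adjusted p = 0.116). For Pde7b, 5mC was 0.652, 0.659 and 0.642 in cortex, 0.693 and 0.687 in olfactory bulb, and 0.749 and 0.741 in cerebellum. Cerebellum exceeded cortex by 0.65 (adjusted p = 2.52e-06) and olfactory bulb by 0.39 (adjusted p = 0.0131), and olfactory bulb and cortex, which did not overlap, gave 0.26 (adjusted p = 0.0755).

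Of the enzymes acting on both nucleotides, Pde10a was the gene with its lowest 5mC in cerebellum. Its level was 0.620, 0.630 and 0.601 in cortex, 0.662 and 0.656 in olfactory bulb, and 0.582 and 0.562 in cerebellum, with no overlap between tissues. Cerebellum was below olfactory bulb by −0.53 on the log2 scale (SE 0.124, limma adjusted p = 7.74e-04) and below cortex by −0.27 (adjusted p = 0.0351), and olfactory bulb against cortex gave 0.26 (adjusted p = 0.0707). For Pde11a, 5mC was 0.687, 0.695 and 0.662 in cortex, 0.706 and 0.703 in olfactory bulb, and 0.744 and 0.734 in cerebellum. Cerebellum exceeded cortex by 0.41 (adjusted p = 0.00194), whereas the steps from cortex to olfactory bulb (0.16, adjusted p = 0.269) and from olfactory bulb to cerebellum (0.25, adjusted p = 0.135) did not pass.

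**Figure D1:**
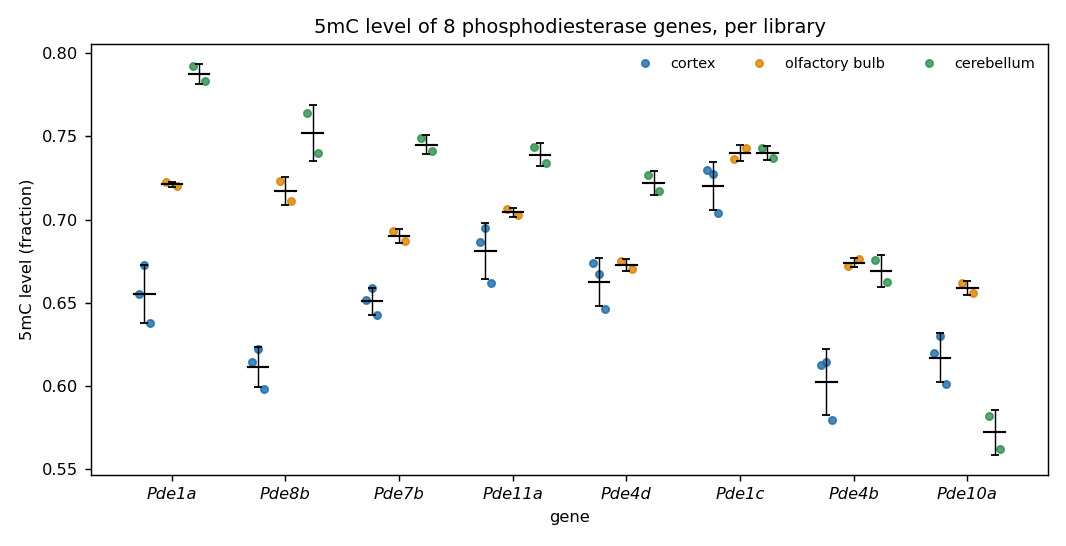
5mC level of each gene (fraction, mean of the 100 kb bins overlapping it) in cortex, olfactory bulb and cerebellum; dots are libraries, black bars are means and whiskers are SDs. Cerebellum is highest for Pde1a, Pde7b, Pde8b, Pde4d and Pde11a, and lowest for Pde10a at 0.572 ± 0.0137 (SD, n = 2).

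Read against all genes, most of these differences follow the direction of the whole libraries. Without overlap between libraries, 57.4% of all genes were higher and 2.28% lower in olfactory bulb than in cortex. In cerebellum 65.1% were higher and 6.22% lower than in cortex without overlap, and 43.2% higher and 22.1% lower than in olfactory bulb. Between cortex and olfactory bulb 3 of the 8 genes were called higher in olfactory bulb, where 26.4% of all genes were, and none was called lower (0.866% of all genes). Between cortex and cerebellum 6 were called higher in cerebellum, against 55.1% of all genes, and 1 lower, against 4.26%. Between olfactory bulb and cerebellum 3 were called higher in cerebellum, against 18.0%, and 1 lower, against 7.69%. Among 998 genes of at least 200 kb, to which all 8 belong, 76.5% were higher and 3.01% lower in cerebellum than in cortex. In that set 33.2% were higher and 3.41% lower in olfactory bulb than in cortex. For cerebellum against olfactory bulb the shares of long genes were 43.9% higher and 6.81% lower. The median change of all genes was 0.20 for olfactory bulb over cortex and 0.29 for cerebellum over cortex, against 0.26 and 0.41 over the 8 genes. Over genes of at least 200 kb these medians were 0.22 and 0.52. In cerebellum over cortex the median of the 8 genes thus lay below that of long genes. With each library centred on its median over all bins, Pde8b stayed higher in olfactory bulb than in cortex by 0.0737 (limma adjusted p = 0.00327), Pde1a, Pde7b and Pde8b stayed higher in cerebellum than in cortex by 0.0762, 0.0378 and 0.0844 in fraction, and Pde10a stayed lower by −0.102 (adjusted p = 1.41e-04). The split of calls was then 3 higher and 2 lower in cerebellum than in cortex, against 11.5% and 29.5% of all genes, 2 and 0 in olfactory bulb against cortex (3.14% and 3.82%), and 2 and 2 in cerebellum against olfactory bulb (10.5% and 24.3%). Pde1c was then lower in cerebellum than in cortex by −0.0366 (adjusted p = 0.0118), and Pde4b, Pde4d and Pde11a differed by 0.0104, 0.00324 and 0.00148 with adjusted p-values of 0.369, 0.795 and 0.909. In that setting Pde1a in olfactory bulb against cortex gave 0.0340 (adjusted p = 0.0629).

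Several of these calls were lost when 1 library was left out, while the effects kept their direction. For Pde10a in cerebellum against cortex this held even for an olfactory bulb library, which does not enter the difference (−0.27 as before). Without the first olfactory bulb library, Pde1a and Pde4b in olfactory bulb against cortex gave 0.44 (limma adjusted p = 0.0818) and 0.46 (adjusted p = 0.0634), and without the second Pde4b gave 0.44 (adjusted p = 0.0530), where all alternatives spanned 1.75e-06 to 0.0818 for Pde1a and 1.28e-06 to 0.0634 for Pde4b. The lower level of Pde10a in cerebellum than in cortex missed the threshold without any library but the third of cortex (−0.33 to −0.21, adjusted p over all alternatives 1.41e-04 to 0.219). In cerebellum against olfactory bulb, Pde7b missed it without any library of those tissues (0.36 to 0.42, adjusted p over all alternatives 8.06e-05 to 0.139) and Pde4d without any of those or the first cortex library (0.30 to 0.38, adjusted p over all alternatives 6.89e-04 to 0.220), whereas without the third cortex library Pde8b and Pde11a gave 0.26 (adjusted p = 0.0408, over all alternatives 0.00965 to 0.553) and 0.25 (adjusted p = 0.0496, over all alternatives 0.00173 to 0.437). Where a tissue is left with 1 library, that library is assumed to vary like the others.

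To remove a shift of a whole library, each gene was compared with the 100 kb bins within 500 kb on either side. Pde10a stood out in cerebellum. Its 5mC minus that of the flanks was −0.0382, −0.0367 and −0.0353 in cortex, 0.0168 and 0.0219 in olfactory bulb, and −0.139 and −0.147 in cerebellum. The gene was thus below its surroundings in cortex, above them in olfactory bulb and far below them in cerebellum, where the flanks had a mean level of 0.715 ± 0.00827 (SD, n = 2) against 0.572 in the gene. In fraction, cerebellum fell below olfactory bulb by −0.162 (SE 0.0102, limma adjusted p = 2.64e-05) and below cortex by −0.106 (SE 0.00935, adjusted p = 1.70e-04), and olfactory bulb exceeded cortex by 0.0561 (adjusted p = 0.0111).

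Pde8b changed sides between cortex and the other tissues. Its 5mC minus that of the flanks was −0.0390, −0.0330 and −0.0293 in cortex, 0.0463 and 0.0361 in olfactory bulb, and 0.0477 and 0.0432 in cerebellum. Olfactory bulb exceeded cortex by 0.0750 (SE 0.00965, limma adjusted p = 0.00390) and cerebellum exceeded cortex by 0.0793 (adjusted p = 7.65e-04), while the 2 higher tissues overlapped (adjusted p = 0.815). For Pde1a the difference was 0.00350, 0.0178 and 0.00838 in cortex, 0.0445 and 0.0631 in olfactory bulb, and 0.0671 and 0.0775 in cerebellum. Pde1a thus lay near its flanks in cortex and above them elsewhere, by 0.0439 more in olfactory bulb (adjusted p = 0.0450) and 0.0624 more in cerebellum (adjusted p = 0.00382). The cerebellum value is raised by a low flank bin (79400001 to 79500000), with a mean of 0.430 in cerebellum against 0.558 in cortex.

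Pde1c went the other way against its flanks. The difference was 0.0645, 0.0668 and 0.0677 in cortex, 0.0179 and 0.0266 in olfactory bulb, and −0.00724 and 0.00340 in cerebellum. It fell by 0.0441 in olfactory bulb (SE 0.00960, limma adjusted p = 0.0300) and by 0.0682 in cerebellum (adjusted p = 0.00153) relative to cortex. The gene's own level showed no difference that passed the test, while the flanks went from 0.654 ± 0.0157 (SD, n = 3) in cortex to 0.718 ± 0.00134 (SD, n = 2) for olfactory bulb and 0.742 ± 0.0115 (SD, n = 2) for cerebellum.

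Pde4b lay below its flanks in cortex (−0.0507, −0.0456 and −0.0591) and in cerebellum (−0.0516 and −0.0565), and level with them in olfactory bulb (−0.00979 and 2.30e-05). Olfactory bulb exceeded cortex by 0.0469 (SE 0.00985, limma adjusted p = 0.0257) and cerebellum was below olfactory bulb by −0.0492 (adjusted p = 0.0124), while cerebellum against cortex gave −0.00229 (adjusted p = 0.893). Pde7b was near its flanks in cortex (−0.00201, −0.0105 and 0.00748) and olfactory bulb (−0.00669 and −0.00362) and above them in cerebellum (0.0266 and 0.0393), which exceeded cortex by 0.0346 (adjusted p = 0.0391) and olfactory bulb by 0.0381 (adjusted p = 0.0406). Pde4d and Pde11a stayed close to their flanks, with all 14 library values between −0.00969 and 0.0200 and adjusted p-values of at least 0.325 for every pair of tissues. In both genes olfactory bulb lay below cortex and cerebellum with no overlap, as 17.5% of all genes did against cortex and 30.6% against cerebellum. Among genes of at least 200 kb only, Pde4d passed in olfactory bulb against cortex (−0.0195, limma adjusted p = 0.0392, over all alternatives up to 0.651).

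**Figure D2:**
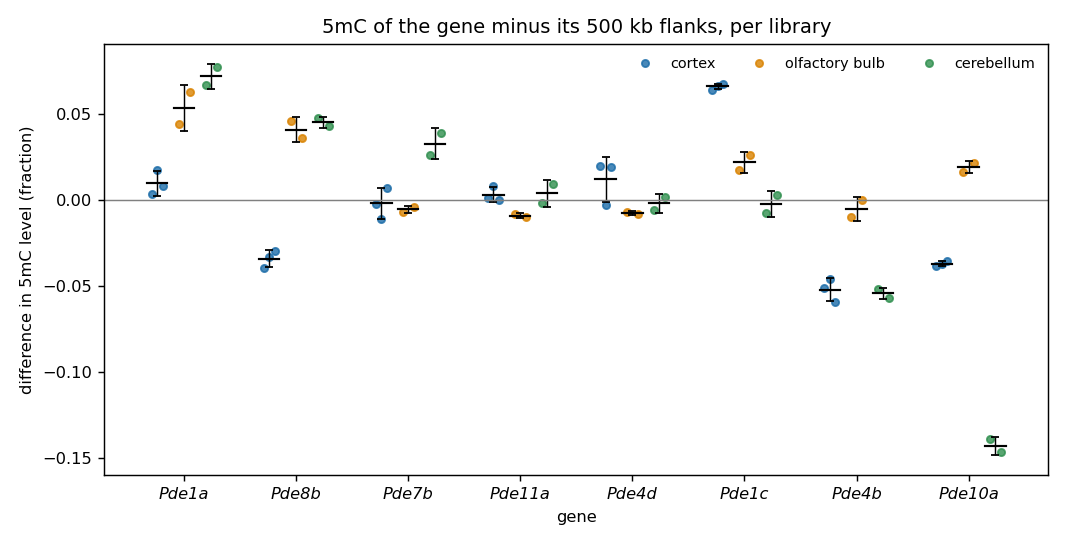
5mC of each gene minus 5mC of its 500 kb flanks (difference of fractions) by tissue; dots are libraries, black bars are means, whiskers are SDs, and 0 means that gene and flanks are equal. Pde10a in cerebellum is at −0.143 ± 0.00541 (SD, n = 2), Pde8b is below 0 in cortex and above 0 in the other tissues, and Pde1c falls from cortex to cerebellum.

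In counts, 4 of the 8 genes rose and 1 fell in olfactory bulb against cortex, where 3.27% and 2.57% of all genes did. In cerebellum against cortex 3 rose and 2 fell (11.7% and 11.2% of all genes), and in cerebellum against olfactory bulb 1 rose and 2 fell (9.95% and 10.9%). Among genes of at least 200 kb these shares were 9.82% and 10.3%, 30.3% and 16.8%, and 25.7% and 16.1%. In olfactory bulb against cortex the calls of Pde1a and Pde1c were lost whichever library was left out, with values of 0.0346 to 0.0532 and −0.0484 to −0.0397 and adjusted p-values of 0.0550 to 0.206, that of Pde4b without any library but the second of cortex (0.0420 to 0.0518), and that of Pde10a without either olfactory bulb library (0.0586 and 0.0536, limma adjusted p = 0.0624 and 0.0732, over all alternatives 1.25e-06 to 0.0789). In cerebellum, Pde7b passed against cortex when the third cortex library was left out but not without any other library (0.0283 to 0.0409) and not with flanks of 200 kb (0.00785, adjusted p = 0.704, over all alternatives 3.21e-04 to 0.704), Pde1a against cortex missed without the second cerebellum library (0.0572, adjusted p = 0.0526, over all alternatives 8.31e-07 to 0.0526), Pde7b against olfactory bulb missed without the first cortex library or any of the 2 tissues (0.0317 to 0.0444), and Pde4b against olfactory bulb missed without the second olfactory bulb library or either of cerebellum (−0.0517 to −0.0443). With flanks of 200 kb the calls of Pde1a (0.0437) and Pde10a (0.0380) in olfactory bulb against cortex and of Pde7b in cerebellum against olfactory bulb (0.0359) were lost too.

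Along the genes, the differences lay in different places. The first and the last bin of each gene reach past its ends, some with only a small part inside. In Pde10a cerebellum differed most at the 5′ end, while olfactory bulb exceeded cortex by 0.0213 to 0.0562 in fraction along the whole gene and passed the test in the first and the third bin. The first bin (8500001 to 8600000 on chromosome 17) was at 0.578, 0.587 and 0.588 in cortex, 0.653 and 0.628 in olfactory bulb, and 0.485 and 0.464 in cerebellum. Cerebellum was below the others, by −0.98 against olfactory bulb (SE 0.129, limma adjusted p = 2.37e-12) and −0.64 against cortex (adjusted p = 2.86e-07) on the log2 scale. The difference from cortex shrank along the gene, with means in cortex and cerebellum of 0.681 and 0.587 in the second bin, 0.643 and 0.612 in the third, 0.541 and 0.541 in the fourth, which was the lowest of the gene over the 3 tissues, and 0.635 and 0.644 in the fifth. Beyond the 3′ end the order turned. The next 5 bins had means of 0.736 to 0.798 in cerebellum, 0.638 to 0.743 in cortex and 0.629 to 0.687 in olfactory bulb.

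Pde4b showed a slope that differed between tissues. In cortex the bin means ran 0.699, 0.668, 0.589, 0.569, 0.543, 0.484 and 0.662 from the 5′ to the 3′ end, and in olfactory bulb 0.741, 0.747, 0.657, 0.665, 0.610, 0.568 and 0.731. Both fell along the gene to a low point in the sixth bin (102500001 to 102600000 on chromosome 4), the lowest of the gene, and all 7 bins were higher in olfactory bulb than in cortex (limma adjusted p at most 0.0345). In cerebellum the means ran 0.717, 0.614, 0.638, 0.692, 0.631, 0.594 and 0.796. There the second bin (102100001 to 102200000) was low as well, at 0.611 and 0.617 against 0.746 and 0.747 in olfactory bulb (−0.89 on the log2 scale, adjusted p = 2.49e-10) and 0.688, 0.679 and 0.637 in cortex (−0.34, adjusted p = 0.00583). The last bin was the one with the largest excess of cerebellum over cortex, 0.99 (adjusted p = 3.37e-15). That bin lies mostly beyond the gene, which ends at 102607259.

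Pde4d split into an upper and a lower part. In its first 7 bins the means were 0.662 to 0.752 in cortex, 0.732 to 0.773 in olfactory bulb and 0.777 to 0.827 in cerebellum, cerebellum being the highest in each. The eighth bin (109100001 to 109200000 on chromosome 13) reversed this, at 0.646, 0.674 and 0.598, with cerebellum below olfactory bulb by −0.47 (limma adjusted p = 0.00130) and below cortex by −0.29 (adjusted p = 0.0189). From the ninth bin on the levels were lower than in the 5′ part, with means of 0.575 to 0.680 in cortex, 0.517 to 0.680 in olfactory bulb and 0.638 to 0.707 in cerebellum, which was the highest in each of these bins but the tenth. The last bin (109900001 to 110000000) was the lowest on the mean over the tissues and in cortex and olfactory bulb, but not in cerebellum, at 0.583, 0.581 and 0.561 in cortex, 0.527 and 0.507 in olfactory bulb, and 0.683 and 0.679 in cerebellum. Olfactory bulb was below cortex there by −0.34 (adjusted p = 0.0148) and cerebellum above olfactory bulb by 1.00 (adjusted p = 1.05e-12). The largest step from cortex to olfactory bulb was instead near the 5′ end, where the second bin (108500001 to 108600000) was at 0.662 ± 0.0164 (SD, n = 3) and 0.747 ± 0.00116 (SD, n = 2), a difference of 0.60 (adjusted p = 1.35e-05). The same bin had the largest step in fraction from cortex to cerebellum, whose mean there was 0.777 (0.84, adjusted p = 2.71e-11). Olfactory bulb thus lay above cortex near the 5′ end and below it at the 3′ end, while the means of the whole gene were close.

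Pde8b and Pde1a were higher outside cortex in every bin. In the middle bin of Pde8b (95100001 to 95200000 on chromosome 13) 5mC was 0.592, 0.590 and 0.583 in cortex, 0.733 and 0.733 in olfactory bulb, and 0.779 and 0.766 in cerebellum. Olfactory bulb exceeded cortex by 0.94 (limma adjusted p = 9.44e-13) and cerebellum by 1.25 (adjusted p = 5.59e-23), the largest for the gene. Its other bins had means of 0.601 and 0.645 in cortex, 0.695 and 0.724 in olfactory bulb, and 0.719 and 0.765 in cerebellum, the first value of each pair being the bin lowest on the mean over the tissues, which holds 6 of its 7 annotated coding starts. In Pde1a the bin means from the 5′ end were 0.635, 0.624, 0.662 and 0.699 in cortex, 0.701, 0.732, 0.710 and 0.742 in olfactory bulb, and 0.754, 0.782, 0.813 and 0.802 in cerebellum. The first bin (80100001 to 80200000 on chromosome 2) was the lowest over the tissues, the second (80000001 to 80100000) had the largest excess in fraction of olfactory bulb (0.72, adjusted p = 9.84e-08) and of cerebellum (1.11, adjusted p = 2.36e-18) over cortex, and the third (79900001 to 80000000) that of cerebellum over olfactory bulb (0.83, adjusted p = 4.08e-09). One flank bin of Pde1a, chosen after its values were seen (79400001 to 79500000), went against this with 0.433 and 0.428 in cerebellum and 0.563, 0.572 and 0.539 in cortex. It holds Neurod1, a transcription factor gene of neuronal differentiation, and Cerkl.

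The bins of Pde1c, Pde7b and Pde11a moved in different ways. In Pde1c, cerebellum exceeded cortex in the first bin (56500001 to 56600000 on chromosome 6), 0.771 against 0.703 (0.51, limma adjusted p = 4.10e-05), and lay below olfactory bulb in the third (56300001 to 56400000), the lowest of the gene, at 0.638 against 0.703 (−0.43, adjusted p = 0.00391), and in the fourth, at 0.749 against 0.803 (−0.45, adjusted p = 0.00209). Cerebellum thus lay above the other tissues in some bins and below them in others. Centred on library medians, the first bin gave 0.0117 in fraction (adjusted p = 0.587, over all alternatives 1.11e-06 to 0.587), and the call in the third was lost without the second olfactory bulb library (−0.41, adjusted p = 0.0648) or the first cerebellum library (−0.37, adjusted p = 0.0817, over all alternatives 3.00e-04 to 0.0817). In Pde7b, cerebellum exceeded cortex in all 5 bins (adjusted p at most 4.01e-05), most in the first (20700001 to 20800000 on chromosome 10), at 0.779 against 0.661. The last (20300001 to 20400000) was lowest, with 0.562 (cortex), 0.610 (olfactory bulb) and 0.646 (cerebellum). It lies mostly beyond the 3′ end of Pde7b at 20398004 and also holds Bclaf1 and Mtfr2. In Pde11a the largest step from cortex to cerebellum was in the second bin (76200001 to 76300000 on chromosome 2), 0.724 against 0.813 (0.73, adjusted p = 6.07e-09). Its last bin (75900001 to 76000000) was lowest, at 0.629, 0.639 and 0.638, with no pair passing the test (adjusted p at least 0.669). That bin lies mostly beyond the 3′ end of Pde11a at 75989141 and also holds Agps, Ttc30a1, Ttc30a2 and Ttc30b.

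**Figure D3:**
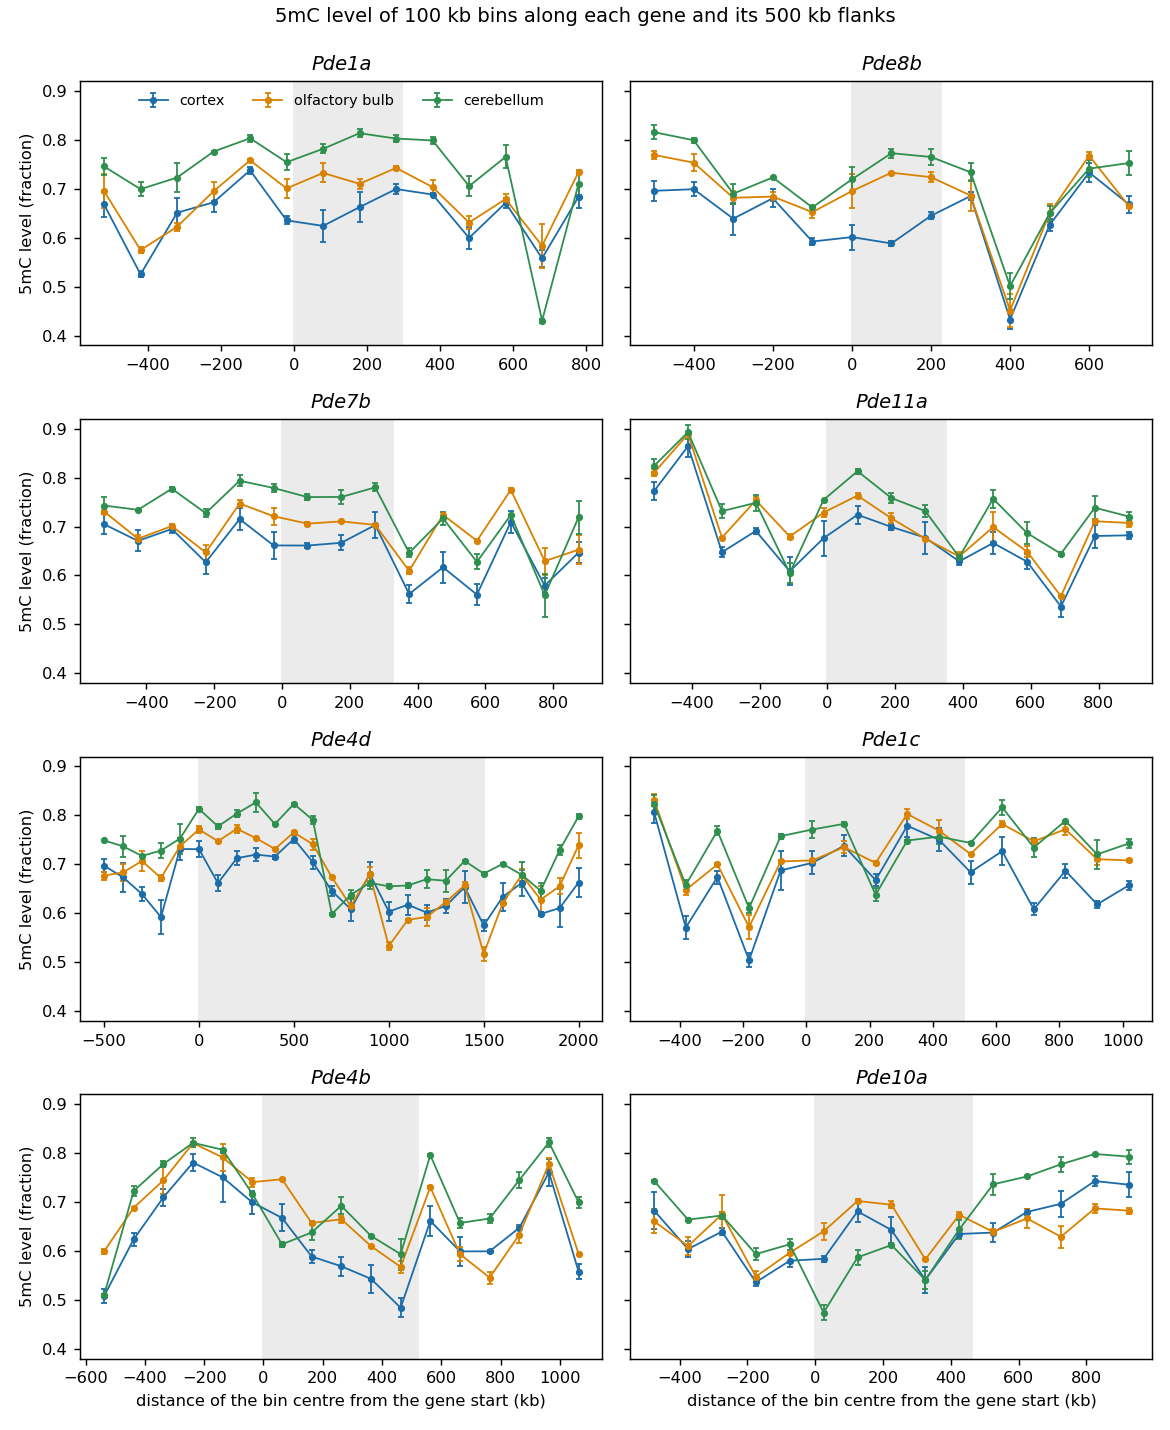
Mean 5mC level (fraction) of each 100 kb bin against distance from the annotated gene start (kb, in the direction of transcription) for the 8 genes and their 500 kb flanks, one line per tissue; the grey area marks the gene. Cerebellum dips below the other tissues over the 5′ part of Pde10a and the second bin of Pde4b, and runs above them through Pde8b, Pde1a and Pde7b.

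Of the 51 bins, 25 were called higher and 2 lower in olfactory bulb than in cortex (37.6% and 2.18% of all bins), 37 higher and 5 lower in cerebellum than in cortex (71.9% and 4.44%), and 26 higher and 7 lower in cerebellum than in olfactory bulb (35.3% and 7.69%). Centred on library medians, these splits were 10 and 6 (8.14% and 9.18% of all bins), 20 and 14 (21.8% and 22.7%), and 10 and 13 (18.9% and 19.2%). The standard error was nearly the same for every bin (median 0.117 for pairs with cortex), so these p-values carry little of a bin's own spread.

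To compare the slopes, the bins of a gene were split at their middle. The measure was the mean of the 5′ side minus the mean of the 3′ side. With an odd number of bins, as in Pde4b, Pde7b, Pde10a and Pde11a, the middle bin was left out. The measure was added after the profiles were seen. It covered 739 genes of at least 200 kb with 4 or more bins, which leaves out Pde8b. By this measure Pde4b and Pde10a had the opposite slope in cerebellum. For Pde4b the 3′ side includes the last bin, which lies mostly beyond the gene and had a cerebellum mean of 0.796. The 5 bins wholly inside Pde4b were at 0.614, 0.638, 0.692, 0.631 and 0.594 there. Of these, the 5′ pair (0.614 and 0.638) was not below the 3′ pair (0.631 and 0.594) on average. The opposite slope of Pde4b was thus not seen inside the gene. The measure was not taken on bins wholly inside a gene. For Pde4b the 5′ side exceeded the 3′ side by 0.0923, 0.0793 and 0.0953 in cortex and 0.0831 and 0.0746 in olfactory bulb, against −0.0222 and −0.0124 in cerebellum. For Pde10a the values were 0.0521, 0.0331 and 0.0484 in cortex, 0.0524 and 0.0333 in olfactory bulb, and −0.0645 and −0.0594 in cerebellum. In both genes cortex and olfactory bulb overlapped, and cerebellum lay below 0. Cerebellum fell below cortex by 0.106 for Pde4b (SE 0.00894, limma adjusted p = 1.52e-05) and 0.107 for Pde10a (SE 0.00969, adjusted p = 2.29e-05), and below olfactory bulb by 0.0961 and 0.105 (both adjusted p = 4.49e-05).

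In Pde4d the 5′ side was the higher one in every library, by 0.0842, 0.0761 and 0.0978 in cortex, 0.139 and 0.149 in olfactory bulb, and 0.107 and 0.113 in cerebellum. Olfactory bulb was steepest, above cortex by 0.0580 (limma adjusted p = 0.00250) and above cerebellum, which differed from it by −0.0341 (adjusted p = 0.0281). In Pde11a the excess of the 5′ side was larger in olfactory bulb by 0.0417 (adjusted p = 0.0156) and in cerebellum by 0.0521 (adjusted p = 0.00266) than its mean of 0.0472 ± 0.0141 (SD, n = 3) in cortex. Pde1a had the reverse slope, −0.0494, −0.0518 and −0.0525 in cortex, −0.0121 and −0.00751 in olfactory bulb, and −0.0309 and −0.0493 in cerebellum. It was flattest in olfactory bulb, which differed from cortex by 0.0414 (adjusted p = 0.00847), with cerebellum against olfactory bulb at −0.0303 (adjusted p = 0.0338).

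In all, 3 of the 7 genes measured this way were called higher in olfactory bulb than in cortex (11.1% of the 739 genes) and none lower (9.07%), 1 higher and 2 lower in cerebellum than in cortex (19.2% and 18.9%), and 4 lower in cerebellum than in olfactory bulb (16.6%) with none higher (15.8%). The calls for Pde4b and Pde10a held without any single library, and so did that of Pde4d in olfactory bulb against cortex and that of Pde11a in cerebellum against cortex. Pde11a in olfactory bulb against cortex missed without either olfactory bulb library (0.0395 and 0.0440, limma adjusted p = 0.0837 and 0.0699), and Pde1a without the second (0.0391, adjusted p = 0.0664). Against olfactory bulb, cerebellum missed for Pde4d without any library of those tissues (−0.0392 to −0.0291), and for Pde1a without the first cortex, either olfactory bulb or the second cerebellum library (−0.0326 to −0.0211). In the other direction, Pde4d in cerebellum against cortex passed without the third cortex library (0.0298, adjusted p = 0.0274), Pde7b without the first (0.0346, adjusted p = 0.0325), and Pde1c in cerebellum against olfactory bulb without the second or the third (0.0299, adjusted p = 0.0315 and 0.0472).

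**Figure D4:**
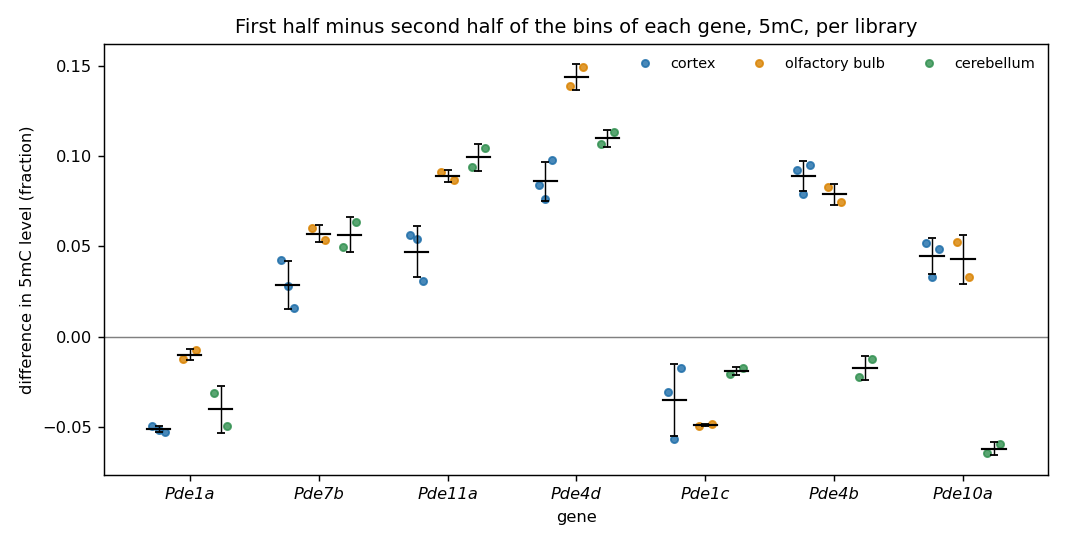
5mC of the 5′ side of each gene's bins minus that of the 3′ side (difference of fractions) by tissue for the 7 genes with 4 or more bins; dots are libraries, black bars are means and whiskers are SDs. Pde4b and Pde10a are above 0 in cortex and olfactory bulb and below 0 in cerebellum, at −0.0173 ± 0.00688 and −0.0620 ± 0.00361 (SD, n = 2). For Pde4b the 3′ side includes a bin that lies mostly beyond the gene.

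The bin holding the annotated start is usually lower than the rest of a long gene, with a median difference of −0.0388 (cortex), −0.0399 (olfactory bulb) and −0.0394 (cerebellum) over 997 genes of at least 200 kb. Both PDE4 genes and Pde7b had the start bin above the others in all 3 tissues. In Pde4b the start bin exceeded the others by 0.114 ± 0.0124 in cortex (SD, n = 3), by 0.0779 ± 0.0137 in olfactory bulb and by 0.0562 ± 0.00748 in cerebellum (SD, n = 2 each). In Pde4d it did so by 0.0732 ± 0.00260, 0.105 ± 0.00358 and 0.0974 ± 0.0114, and in Pde7b by 0.0131 ± 0.0276, 0.0388 ± 0.0159 and 0.0421 ± 0.0182. Pde11a was above 0 in olfactory bulb (0.0301 ± 0.00800) and cerebellum (0.0195 ± 0.00923), and Pde1c in cerebellum (0.0373 ± 0.0172). Pde4b and Pde4d have further annotated coding starts downstream, in 4 bins of Pde4b and 8 bins of Pde4d in all. The start bins of Pde4b and Pde7b lie mostly before the gene. Pde10a was the lowest of the 8 in cortex and cerebellum, at −0.0409 ± 0.0210 and −0.122 ± 0.00126, with −0.0231 ± 0.0166 in olfactory bulb. The median of the 8 genes was −0.0106, 0.00352 and 0.0284. These differences were not tested.

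For 5hmC the bins were 1 Mb wide, so that a gene filled from 14.8% (Pde1a) to 75.2% (Pde4d) of the bins that gave its level, and 2 to 14 other protein-coding genes lay in them. The 8 genes are given in 3 sets, arranged after their values were seen, by the level in cerebellum relative to cortex. In the first set, Pde8b, Pde7b, Pde1a and Pde11a, cerebellum was far below cortex. For Pde8b, 5hmC was 0.201, 0.209 and 0.194 in cortex, 0.161, 0.167 and 0.156 in olfactory bulb, and 0.0875, 0.0889 and 0.0940 in cerebellum. For Pde7b it was 0.211, 0.228 and 0.205 in cortex, 0.186, 0.192 and 0.184 in olfactory bulb, and 0.115, 0.110 and 0.113 in cerebellum. No tissues overlapped in either gene. In the same direction, 77.1% of all genes did not overlap in olfactory bulb against cortex. In cerebellum 98.2% of all genes did not overlap cortex and 90.0% did not overlap olfactory bulb. Cerebellum against cortex gave −1.35 for Pde8b, −1.10 for Pde7b, −1.10 for Pde1a and −0.95 for Pde11a on the log2 scale (SE 0.0704, limma adjusted p at most 3.45e-41), against a median of −0.76 over all genes. Over genes of at least 200 kb the median was −0.85.

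Pde4b and Pde10a had 5hmC in cerebellum close to that in olfactory bulb. For Pde4b, 5hmC was 0.226, 0.246 and 0.220 in cortex, 0.215, 0.222 and 0.206 in olfactory bulb, and 0.205, 0.202 and 0.201 in cerebellum. For Pde10a it was 0.210, 0.225 and 0.195 in cortex, 0.187, 0.197 and 0.186 in olfactory bulb, and 0.182, 0.179 and 0.191 in cerebellum. Cortex and olfactory bulb overlapped in both genes, as did olfactory bulb and cerebellum in Pde10a. Cerebellum was below cortex in both, by −0.24 (limma adjusted p = 8.15e-04) for Pde4b and −0.23 (adjusted p = 9.28e-04) for Pde10a, and against olfactory bulb the differences were −0.10 (adjusted p = 0.163) and −0.06 (adjusted p = 0.423). Their cerebellum means of 0.203 ± 0.00207 and 0.184 ± 0.00616 (SD, n = 3) stand beside a genome mean of 0.0949 over 2581 bins.

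Between these sets lay Pde1c and Pde4d. Pde1c had cortex 5hmC of 0.170 ± 0.00923, with 0.147 ± 0.00497 for olfactory bulb and 0.130 ± 0.00199 for cerebellum (SD, n = 3 each), cerebellum being below cortex by −0.46 (limma adjusted p = 6.92e-11) and below olfactory bulb by −0.21 (adjusted p = 0.00281). Pde4d, at 0.213 ± 0.0130, 0.203 ± 0.00646 and 0.161 ± 0.00219, had −0.50 (adjusted p = 1.16e-12) and −0.41 (adjusted p = 7.18e-09). In Pde4d the level joined unlike bins. The bin with its 5′ part (108000001 to 109000000 on chromosome 13) had a cortex level of 0.195 ± 0.0123, with 0.161 ± 0.00580 for olfactory bulb and 0.0961 ± 0.00115 for cerebellum, whereas the bin with its 3′ part (109000001 to 110000000) was at 0.232 ± 0.0141, 0.245 ± 0.00736 and 0.225 ± 0.00503 (SD, n = 3 each). The 3′ bin thus held more 5hmC in each tissue, and there the 3 tissues lay close together.

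The neighbouring 1 Mb bins read here had lower cerebellum means than the bins of Pde10a and Pde4b. For Pde10a only the bin after it was read. The bin before that of Pde4b was still above the cerebellum genome mean of 0.0949. The bin after that of Pde10a (9000001 to 10000000 on chromosome 17) had a cortex level of 0.1998 ± 0.00997, with 0.228 ± 0.00614 for olfactory bulb and 0.0829 ± 0.00216 for cerebellum. The bin after that of Pde4b (103000001 to 104000000 on chromosome 4) was at 0.2004 ± 0.0118, 0.193 ± 0.00557 and 0.0979 ± 0.00317, and the bin before it (101000001 to 102000000) at 0.195 ± 0.00923, 0.165 ± 0.00420 and 0.147 ± 0.00422 (SD, n = 3 each). Differences between neighbouring bins were not tested.

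**Figure D5:**
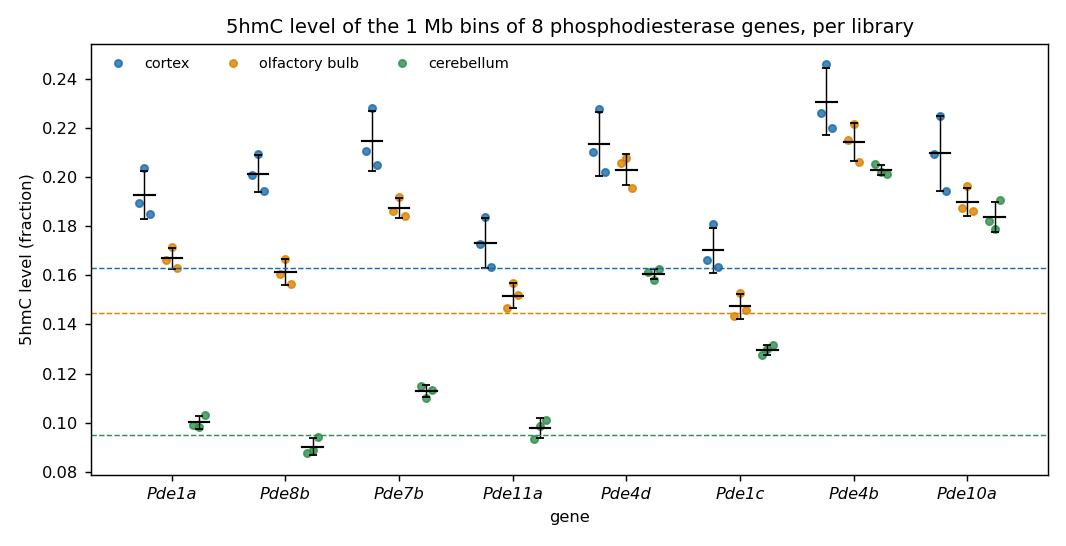
5hmC level of each gene (fraction, mean of the 1 Mb bins overlapping it) by tissue; dots are libraries, black bars are means, whiskers are SDs, and dashed lines are the genome mean of each tissue over 2581 bins (0.163, 0.145 and 0.0949). In cerebellum Pde4b (0.203) and Pde10a (0.184) are well above the dashed line, and Pde8b (0.0901) is just below it.

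All 8 genes were called lower in cerebellum than in cortex, as were 98.4% of all genes, with 0.124% higher. In olfactory bulb 6 were called lower than in cortex (77.9% of all genes, with 1.07% higher), the exceptions being Pde4b (−0.14, limma adjusted p = 0.0677) and Pde4d (−0.09, adjusted p = 0.228), and 6 were called lower in cerebellum than in olfactory bulb (88.0%, with 1.02% higher). With the replicate number as a block in cortex and olfactory bulb, Pde4b passed (−0.14, adjusted p = 0.00562, in a range of 0.00562 to 0.264 over its alternatives). Pde10a, at −0.18 in olfactory bulb against cortex (adjusted p = 0.0173), missed without the first or second cortex or the first or the third olfactory bulb library (−0.18 to −0.11, adjusted p of 0.0515 to 0.0805, over all alternatives 3.12e-04 to 0.317). Without the third cortex or the second olfactory bulb library, Pde4b passed at −0.18 (adjusted p = 0.0159) and −0.17 (adjusted p = 0.0409). The estimated spread was 1 value for all genes, so a gene's own replicate error does not enter these p-values.

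Since 5hmC was lower across the genome outside cortex, the genes were also compared after centring each library on its median. Relative to that median, Pde10a exceeded its cortex level in cerebellum by 0.0558, Pde4b by 0.0536, Pde1c by 0.0409, Pde4d by 0.0287 and Pde11a by 0.00602 (limma adjusted p at most 0.0120), while Pde8b fell by 0.0298, Pde7b by 0.0203 and Pde1a by 0.0110. The split of calls was then 5 higher and 3 lower, where 75.4% of all genes were higher and 14.4% lower, and where the levels as deposited gave 0 and 8. Cerebellum against olfactory bulb likewise gave 5 and 3 (74.8% and 16.6%). Olfactory bulb against cortex gave 1 and 1 (35.8% and 33.2%), with Pde4d higher by 0.0125 (adjusted p = 7.69e-04) and Pde8b lower by −0.0174 (adjusted p = 6.48e-06).

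The share of 5hmC in the sum of both marks was taken over the same 1 Mb bins. It is built from the same 5hmC levels as the sets above, so it is no separate support for them. In cortex it ran from 20.1% ± 0.962 (Pde1c) to 27.6% ± 1.31 (Pde4b), above the genome's 19.4% in each gene. In cerebellum it was 23.1% ± 0.281 for Pde4b and 23.0% ± 0.658 for Pde10a, against 10.8% ± 0.392 for Pde8b, 11.6% ± 0.460 for Pde11a, 11.8% ± 0.298 for Pde1a, and 11.5% for the genome. Pde10a held 22.9% ± 0.568 in olfactory bulb, so that its share differed between olfactory bulb and cerebellum by less than the errors, which combine the SDs of both assays. The sum itself was lowest for Pde10a in each tissue, at 0.823 ± 0.0214 (cortex), 0.829 ± 0.00951 (olfactory bulb) and 0.799 ± 0.0116 (cerebellum). The genome gave 0.840, 0.852 and 0.826. The highest sum was 0.889 ± 0.00503 for Pde7b in olfactory bulb. Shares and sums were not tested, since the marks came from different libraries.

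By 5mC over the 7 libraries, the genes of at least 200 kb on other chromosomes most like each phosphodiesterase gene were named by their root mean square difference. Pde11a had the closest, Med12l (0.00439) and Vwa8 (0.00466), among 920 genes compared. Ncald was closest to Pde4b (0.00586), with means of 0.603, 0.681 and 0.668 in the order of tissues used above, and Rtl4 to Pde1c (0.00535). Pde10a had the most distant neighbours of the 8, Specc1 (0.0101, with 0.614, 0.671 and 0.572) and Rptor (0.0157). The first neighbours of the others were Arhgap42 for Pde1a (0.00793), Zbtb20 for Pde4d (0.00884), Dtnb for Pde7b (0.00850) and Foxp1 for Pde8b (0.00890), and the second were Unc5d (0.00920), Acoxl (0.00944), Klhl32 (0.00861) and Plxna4 (0.00901). For Pde4b and Pde1c the second were Ext1 (0.00948) and Gabra3 (0.00742).

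Other genes of the pathway were counted by 5mC minus flanks, where 3.27% of all genes rose and 2.57% fell in olfactory bulb against cortex, 11.7% and 11.2% in cerebellum against cortex, and 9.95% and 10.9% in cerebellum against olfactory bulb. Of 15 other phosphodiesterase genes, 1 rose and none fell in olfactory bulb against cortex (Pde8a, 0.0556), 1 rose and 1 fell in cerebellum against cortex (Pde2a, 0.0669, and Pde3b, −0.0739), and 1 fell in cerebellum against olfactory bulb (Pde3b, −0.0758). Of 19 cyclase genes, 1 rose in olfactory bulb against cortex, 4 rose and 4 fell in cerebellum against cortex, and 3 rose and 3 fell in cerebellum against olfactory bulb. The change in Adcy1, which encodes a calmodulin-stimulated adenylyl cyclase, had the same order of tissues as Pde10a, higher by 0.0631 in olfactory bulb than in cortex and lower in cerebellum by −0.163 than in cortex and by −0.226 than in olfactory bulb. Adcy2 exceeded both other tissues in cerebellum, by 0.100 and 0.130. Of 20 effector genes none passed in olfactory bulb against cortex, 4 rose and 1 fell in cerebellum against cortex, and 5 rose and 1 fell in cerebellum against olfactory bulb. Among them were Cnga4, a cyclic nucleotide-gated channel subunit (0.110 and 0.112), Prkar2b, a regulatory subunit of protein kinase A (0.0802 and 0.0763), and Rapgef4, an exchange factor that binds cyclic AMP (−0.0760 and −0.0893).

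By 5mC level the same lists gave 11 of 15, 14 of 19 and 14 of 20 genes higher in cerebellum than in cortex, with 0, 1 and 0 lower (55.1% and 4.26% of all genes), and 5, 6 and 4 higher in olfactory bulb than in cortex with none lower (26.4% and 0.866%). By 5hmC all 15, 19 and 20 were lower in cerebellum than in cortex, as were 98.4% of all genes. The median change of 5hmC in cerebellum against olfactory bulb was −0.45, −0.58 and −0.61 on the log2 scale for the 3 lists, −0.57 for the 8 genes and −0.50 over all genes. Over genes of at least 200 kb it was −0.69.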

How the data were processed

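Per the labels and the methods of the study, 5mC was measured by oxBS-seq (7 libraries) and 5hmC by TAB-seq (9 libraries) in cortex, olfactory bulb and cerebellum of mice, with reads aligned to mm10. Bismark is named in the submitters' processing notes, and its version is not given in the sources used here. The authors deposited the levels as fractions per 100 kb (5mC) and per 1 Mb (5hmC); how sites were combined within a bin is not given in the sources used here. No counts or coverage came with them, so the depth is unknown and only the spread between libraries bears on precision. Further RNA-seq samples were not analysed here. Low-coverage bins could not be told from others, and bins listed at 0 or 1 in any library were left out (25664 of 26327 and 2581 of 2641 used).

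Gene levels were means over overlapping bins, and flanks were 500 kb on either side. limma 3.58.1 (R 4.3.3) was fitted to log2(level/(1 − level)), or to differences of fractions for gene minus flanks and for the 5′ side minus the 3′ side of a gene, over the 3 tissues in one fit, with Benjamini-Hochberg adjustment over all features at 0.05. It was tested on simulated data first. Tables were made with Python 3.11.15, numpy 2.4.6 and pandas 2.3.3. Replicates came from independent mice. The p-values rest on a spread between libraries that limma shares across features. For 5mC levels the SE was 0.112 to 0.114 for all 8 genes in pairs with cortex, so a gene's own spread enters little. It enters little for bins too, and not at all for 5hmC. For differences from flanks and between gene sides the sharing is weaker.

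The members and lists were chosen with earlier results of these data known. All 8 genes are named, with the bin lowest over the tissues and the bin with the largest difference of means for each pair, the 2 nearest genes of at least 200 kb on other chromosomes, and up to 4 genes per list with the largest called change against flanks. Alternatives were the fraction scale, centring on library medians, all bins limited to 0.001 to 0.999, trend and robust options, the replicate number as a block, only the 2 tissues compared, each library left out, bins wholly inside a gene, weighting by length, genes of at least 200 kb only, flanks of 200 kb and the first 2 bins as start. The 5′ against 3′ sides and the block in cortex and olfactory bulb only were added after the data were seen. The labels do not tie replicate numbers to a shared animal or day. In 5hmC of cortex and olfactory bulb, libraries of equal number had r of deviations of 0.126, 0.344 and 0.250. In other 5hmC pairs r was at most 0.0743, and in 5mC it was −0.0906 to 0.0158. These r are for equal numbers only, so they do not establish pairing. Libraries are numbered as in the labels. In 5mC the deposited library names carry other numbers, so that one label number can stand for different name numbers in different tissues, and the 5mC block and its check hold for the label numbers only.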

Additional observations from a re-analysis of the deposited data

How the results depend on the processing

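Of the single results, 757 of the values with 1 library left out and 664 of those under other settings kept their direction and their side of the threshold. With 1 library left out 86 were lost as calls, 9 were gained and 15 turned, and under the other settings 35 were lost, 19 gained and 28 turned. The causes were not tested. Depth cannot be weighed, since no coverage was given, and the 2 libraries of olfactory bulb and of cerebellum limit the 5mC tests.

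Calls by 5mC level numbered 1 to 3 (olfactory bulb against cortex), 6 to 7 (cerebellum against cortex) and 2 to 6 (cerebellum against olfactory bulb) with 1 library left out, calls against flanks 1 to 3, 3 to 5 and 1 to 3, calls by 5hmC 5 to 7, 8 to 8 and 6 to 6, called bins 11 to 28, 33 to 42 and 16 to 35, and calls by 5′ minus 3′ side 1 to 3, 3 to 4 and 2 to 5. The fewest called by 5mC level in olfactory bulb against cortex, 1, came without the first olfactory bulb library, and without the third cortex library the counts were 3, 7 and 6. The median share of 5hmC was 23.7% to 24.6% in cortex, 19.9% to 20.3% in olfactory bulb and 14.2% to 14.4% in cerebellum, and the median of the start bin minus the others −0.0124 to 0.000892, 0.00352 to 0.0153 and 0.0211 to 0.0284. In olfactory bulb against cortex, 5mC called 5 genes among genes of at least 200 kb only, the difference from flanks called 2 with only the 2 tissues compared and 3 with flanks of 200 kb, and centring left 2 calls by 5hmC and 16 bins. With the first 2 bins as start the median difference was 0.0218 in cortex and 0.0299 in olfactory bulb.

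Values that turned were, with centring, for 5mC in olfactory bulb against cortex Pde11a (−0.00866), Pde1c (−0.0125) and Pde4d (−0.0220), and Pde1c in cerebellum against cortex (−0.0366) and olfactory bulb (−0.0241). Centred 5hmC turned in olfactory bulb against cortex for Pde11a (0.00137), Pde4b (0.00649), Pde4d (0.0125) and Pde10a (0.00314), in cerebellum against cortex for Pde11a (0.00602), Pde4b (0.0536), Pde1c (0.0409), Pde4d (0.0287) and Pde10a (0.0558), and in cerebellum against olfactory bulb for the same 5 genes (0.00465, 0.0471, 0.0410, 0.0162 and 0.0526). Pde1c by 5mC turned in bins wholly inside the gene (−0.0188 against cortex and −0.159 against olfactory bulb) and weighted by length (−0.0509 against olfactory bulb). With flanks of 200 kb, Pde4b in cerebellum against cortex (0.0114), and Pde1a (−0.00741) and Pde8b (−0.00154) in cerebellum against olfactory bulb turned. With 1 library left out, turning values ranged from −0.0237 to 0.0276 for Pde1c and −0.0782 to 0.0105 for Pde4b by 5mC in cerebellum against olfactory bulb. Against flanks they ranged from −0.00789 to 0.00111 for Pde7b in olfactory bulb against cortex, −0.00476 to 0.00634 for Pde11a and −0.00594 to 0.000811 for Pde4b in cerebellum against cortex, and −0.000825 to 0.00937 for Pde8b in cerebellum against olfactory bulb. By 5′ minus 3′ side they ranged from −0.0112 to 0.00780 for Pde10a in olfactory bulb against cortex and −0.00758 to 0.00621 for Pde7b in cerebellum against olfactory bulb.

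The replicate block rests on replicate numbers, whose r were highest in 5hmC of cortex and olfactory bulb, which does not establish pairing. With the block, 2 genes against flanks were called in olfactory bulb against cortex, where 5 were without it. The other counts were 3, 7 and 5 by 5mC, 4 and 2 against flanks, and 7, 8 and 6 by 5hmC. Called bins numbered 21, 43 and 37, and calls by 5′ minus 3′ side 3, 4 and 4. Under that block Pde7b (0.00111) in olfactory bulb against cortex and Pde11a (−0.000773) in cerebellum against cortex turned against flanks, and Pde10a by 5′ minus 3′ side in olfactory bulb against cortex (0.000207).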
